A study of Mus musculus with 36 samples.

Results

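Immunoglobulin heavy chain constant genes encode the part of the antibody heavy chain that sets its class. The 7 genes described here were listed by name, and no replication timing (RT) value entered the rule that lists them, although earlier results of these data were known when the list was made: Ighm (IgM), Ighd (IgD), Ighg3 (IgG3), Ighg1 (IgG1), Ighg2b (IgG2b), Ighe (IgE) and Igha (IgA). They were set beside the 22350 protein-coding genes of the annotation. All lie in the Igh locus near the distal end of mouse chromosome 12 (mm9), where they are transcribed toward the centromere. In the order of transcription, Ighm comes first and Igha last, and the J, D and V segments lie upstream of Ighm, toward the chromosome end.

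A B cell first joins a V, a D and a J segment, which removes the DNA between them from that chromosome. Class switch recombination then joins the repeats upstream of Ighm, called a switch region, to the switch region of a downstream constant gene, and the DNA between them is lost. Each constant gene except Ighd has its own switch region, and Ighd is made with Ighm by alternative splicing of 1 long transcript. The enzyme that starts the reaction, AID, deaminates cytosines and acts preferentially at short motifs such as AGCT. CH12 cells are known for switching from IgM to IgA.

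The samples comprised 36 Repli-seq libraries in 7 groups, collected to ask how RIF1 and the MCM helicase set early replication in B cells. In Repli-seq, newly made DNA takes up BrdU, cells from the first and last parts of S phase are sorted apart, and the BrdU-bearing DNA of each fraction is sequenced. Domain maps of 2 groups, resting on 8 libraries, and 1 further map were analysed here. Each map gives every 20 kb bin of the genome 1 of 3 states, E for early, M for middle or L for late.

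The first map came from CH12 shLacZ cells, a mouse B cell lymphoma line that carried an shRNA against LacZ as infection control and was stimulated, per the labels, with IL4, CD40 and TGF beta. It rested on 2 replicates of the early and of the late fraction. The second map came from WT primary B cells, activated cells of the mouse spleen without a Rif1 deletion, with the same number of libraries. The labels give the primary B cells the growth conditions of CH12 cells, and their age was not given in the sources used here. The study's methods place its Rif1 wild-type mice on a C57BL/6 background. The third map is named for MEF WT, mouse embryonic fibroblasts, and the labels tie it to no sample. The maps hold no expression, so the labelled cell types could not be checked against markers. Because the replicates had been pooled prior to state calling, each condition has 1 map, with no replicate error and no test between conditions. Read depth is unknown from the maps. With only an early and a late fraction, a bin replicated in the middle of S phase and a bin replicated early in some cells and late in others cannot be told apart, and both can be M.

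The stretch from the start of Ighm to the start of Igha spanned 162 kb. Relative to the Ighm start, the gene starts lay at 6.42 kb for Ighd, 61.5 kb for Ighg3, 92.2 kb for Ighg1, 115 kb for Ighg2b, 149 kb for Ighe and 162 kb for Igha. The widest interval without a listed gene, 53.0 kb, lay between Ighd and Ighg3. Ighm occupied chr12:114659078-114660941 and Ighg1 chr12:114567187-114568734, both under these symbols in the annotation. Ighe (chr12:114509391-114511457) was found through a synonym, and Ighg3 (chr12:114597876-114599443) and Ighg2b (chr12:114544600-114546144) through the order of their neighbours. Ighd (chr12:114652484-114654524) and Igha (chr12:114496982-114498442) had no named entry and were placed by matches of translated constant domains. For Igha there were 3 such domains, the best with 45% identity to an Ighm exon over 131 residues. For Ighd there were 2, the best aligned ones with 39.2% identity to Ighm over 74 residues and 29.9% to Ighg1 over 87 residues. Their ends are therefore those of the matched domains, and small against a bin.

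The switch regions are shown first because they are the sites joined in class switching. Below is, for each gene, the 120-base window with the most AGCT within 10 kb upstream of its start (5 kb for Ighd, whose longer window reaches the switch region of Ighm). Sequences were read from the NCBIM37 genome (mm9) on the minus strand, 5′ to 3′, and capitals mark AGCT, which reads the same on both strands.
Ighm, chr12:114662989-114663108: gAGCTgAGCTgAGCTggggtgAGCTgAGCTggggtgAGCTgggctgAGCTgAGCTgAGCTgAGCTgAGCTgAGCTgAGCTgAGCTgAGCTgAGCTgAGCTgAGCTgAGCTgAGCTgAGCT
Ighd, chr12:114657402-114657521: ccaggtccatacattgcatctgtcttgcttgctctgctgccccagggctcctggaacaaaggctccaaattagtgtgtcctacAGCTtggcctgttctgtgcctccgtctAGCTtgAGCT
Ighg3, chr12:114601802-114601921: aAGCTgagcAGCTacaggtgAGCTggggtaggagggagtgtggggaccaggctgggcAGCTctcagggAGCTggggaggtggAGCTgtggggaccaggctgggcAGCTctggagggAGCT
Ighg1, chr12:114572034-114572153: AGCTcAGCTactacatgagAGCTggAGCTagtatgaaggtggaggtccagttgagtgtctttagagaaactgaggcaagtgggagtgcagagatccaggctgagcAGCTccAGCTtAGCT
Ighg2b, chr12:114552015-114552134: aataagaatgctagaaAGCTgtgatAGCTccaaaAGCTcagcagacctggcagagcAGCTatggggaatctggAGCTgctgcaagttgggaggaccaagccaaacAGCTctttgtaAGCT
Ighe, chr12:114513452-114513571: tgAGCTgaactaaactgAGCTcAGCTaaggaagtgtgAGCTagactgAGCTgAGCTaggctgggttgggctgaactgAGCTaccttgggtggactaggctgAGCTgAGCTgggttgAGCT
Igha, chr12:114500592-114500711: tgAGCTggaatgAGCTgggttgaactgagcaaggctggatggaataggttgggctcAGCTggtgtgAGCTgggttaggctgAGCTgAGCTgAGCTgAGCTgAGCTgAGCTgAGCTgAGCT

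The window of Ighm held 21 AGCT, all 21 within GAGCT, with 2 GGGGT. That of Igha held 12 AGCT, of which 11 were within GAGCT, and that of Ighe held 10, of which 9 were. The windows of Ighg3, Ighg1 and Ighg2b held 8, 7 and 7 AGCT, and only 4, 2 and 1 of these were within GAGCT. Ighm, Ighe and Igha thus shared a GAGCT-rich form of repeat in these windows, and the IgG genes had AGCT in more varied surroundings. The window of Ighd held 3 AGCT. Of 978800 windows of 120 bases tiled along chromosome 12, 42.3% held AGCT at least once and 2.37% held 3 or more. The printed windows were picked as the densest of their stretch and the tiled ones were not. These shares therefore do not show how rare the printed windows are.

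Over the whole 10 kb upstream, AGCT occurred 238 times for Ighm, 134 times for Ighg3, 141 times for Ighg1, 166 times for Ighg2b, 127 times for Ighe and 165 times for Igha. The median of 11724 windows of 10 kb on chromosome 12 was 48 and their 99th percentile was 73. All 6 genes with a switch region therefore lay above the 99th percentile. The 5 kb upstream of Ighd held 19 AGCT, and 82.2% of 5 kb windows held at least as many. On the sense strand, G made up 28.7% and C 20.2% of the 10 kb upstream of Ighm. G exceeded C in this window at each of the 6 genes with a switch region, with the widest gap at Ighg1 (34.2% against 20.2%) and the narrowest at Ighe (26.4% against 23.5%). These counts describe the reference sequence, which comes from 1 mouse strain, and not the rearranged loci of the cells studied.

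**Figure D1:**
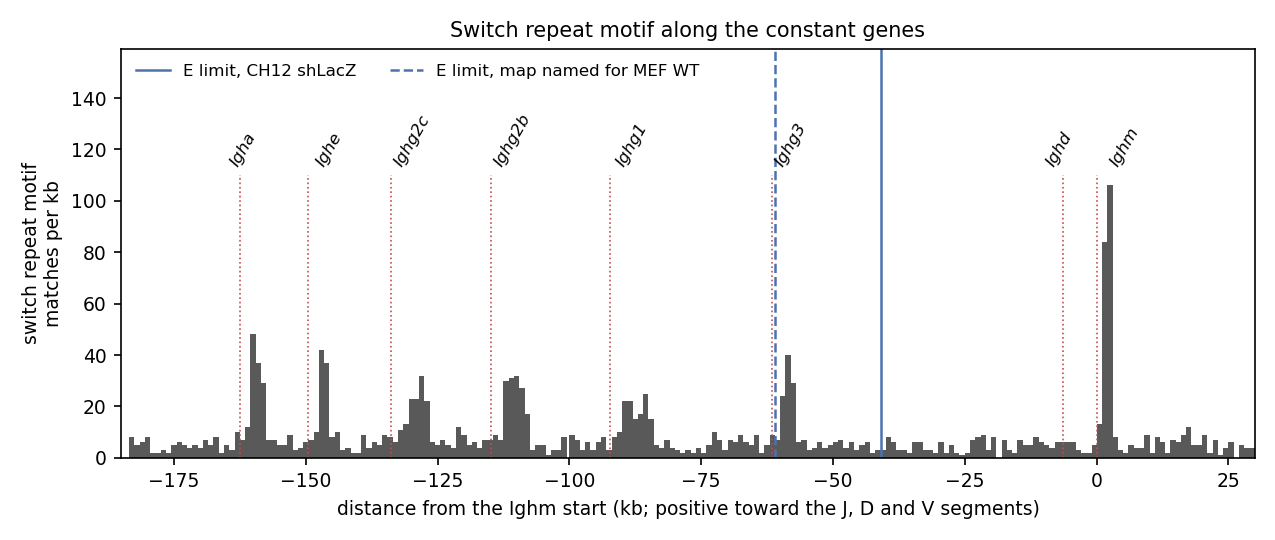
Matches of the switch repeat motif per kb (vertical axis) against distance from the Ighm start in kb (horizontal axis), with gene starts as dotted lines and the limit of the E domain in CH12 shLacZ cells (solid) and in the map named for MEF WT (dashed). The highest bar, 106 per kb, stands just upstream of Ighm, each other switch region forms its own peak, and the E limits fall between Ighm and the Ighg3 start; the peak upstream of Ighg2c belongs to a gene not among the 7.

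In CH12 shLacZ cells the constant genes were split between RT states. Ighm and Ighd were in an M domain, and Ighg3, Ighg1, Ighg2b, Ighe and Igha were in an E domain. Thus 5 of 7 genes were E in CH12 cells, where 50.6% of protein-coding gene starts were E. In primary B cells all 7 genes were E, where 58.0% of protein-coding gene starts were E. In the map named for MEF WT, Ighm and Ighd were again M and 5 genes were E, beside 58.6% of protein-coding gene starts. None of the 7 was L in any map. Within each map they lay in the same domain or in adjoining ones, so they are not independent. The share of protein-coding gene starts that were L in no map was not computed, so the absence of L is given as a description only.

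Ighm, the donor gene of class switching, and Igha, the acceptor to which CH12 cells switch, therefore carried different states in CH12 cells (M and E) and the same state in primary B cells (E). Both genes started within 150 kb of the CH12 limit, and moving the limits by 150 kb put both in M or both in E, so the difference in CH12 cells is not resolved at the smoothing span given below. Ighg3, Ighg1, Ighg2b, Ighe and Igha were E in each of the 3 maps, a pattern shared by 43.9% of protein-coding gene starts. Ighm and Ighd were M in CH12 cells, E in primary B cells and M in the map named for MEF WT. That pattern was found at 760 protein-coding gene starts, 3.40% of the total. Ighg2c, an IgG gene between Ighg2b and Ighe that is not among those listed, was E in each map.

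The states at the switch windows printed above followed those of the gene starts with 1 exception. The window of Ighg3 lay in the M domain of the map named for MEF WT, although the gene start was E. Of the 6 switch windows, 5 were E in CH12 cells, 6 in primary B cells and 4 in the map named for MEF WT. Of protein-coding gene starts, 50.6%, 58.0% and 58.6% were E in these maps. The windows lie within 6 kb of their gene starts, so their counts largely repeat those of the genes. The same limit on resolution holds for them.

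**Figure D2:**
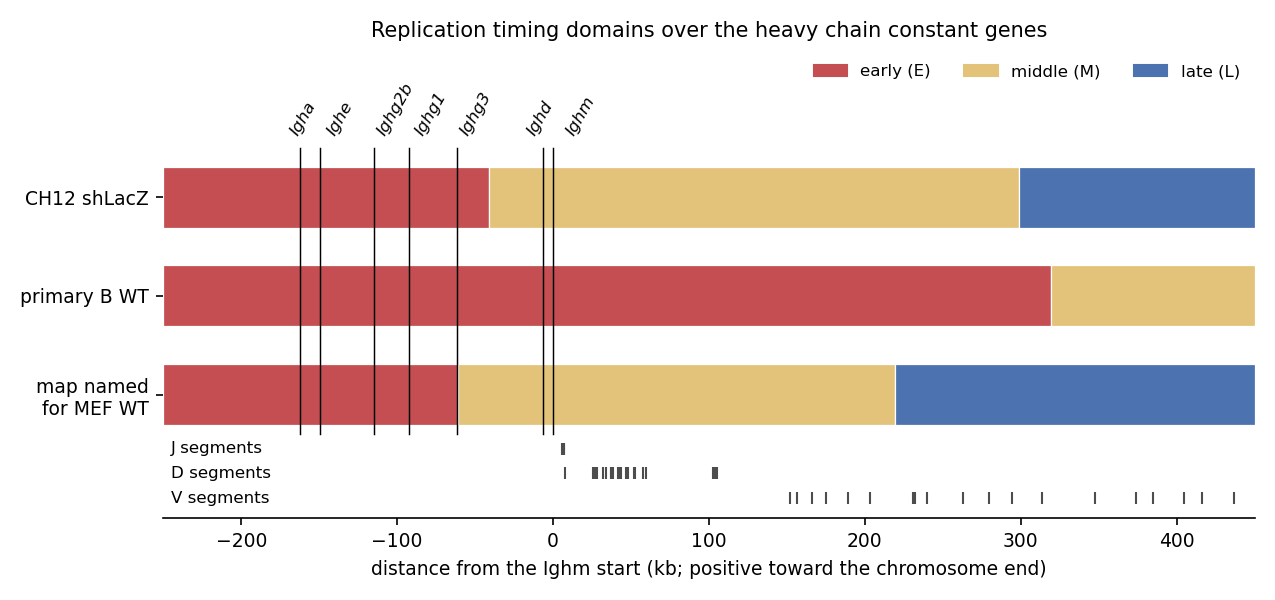
RT domains of the 3 maps (rows, coloured by state) against distance from the Ighm start in kb, with the start of each constant gene as a vertical line and J, D and V segment starts as ticks. The E domain ends 40.9 kb before the Ighm start in CH12 shLacZ cells, 60.9 kb before it in the map named for MEF WT, and 319 kb beyond it in primary B cells.

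The split came from where 1 E domain ended. In CH12 cells the E domain chr12:111560001-114620000 ended between Ighd and Ighg3 and was followed by an M domain of 340 kb. Ighg3 started 20.6 kb inside the limit, and Ighd started 34.5 kb and Ighm 40.9 kb past it. The genes farther from Ighm lay deeper in the E domain, at 51.3 kb for Ighg1, 73.9 kb for Ighg2b, 109 kb for Ighe and 122 kb for Igha.

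In the map named for MEF WT the E domain chr12:111260001-114600000 ended 20 kb before that of CH12 cells, which is 1 bin. Ighg3 started 0.557 kb inside it, less than 1 bin, and moving the limits by 20 kb toward the centromere made Ighg3 M in this map. In the same map Ighg1, Ighg2b, Ighe and Igha lay 31.3, 53.9, 88.5 and 102 kb inside the limit, and Ighd and Ighm 54.5 and 60.9 kb past it. In primary B cells the E domain chr12:113580001-114980000 ended 360 kb beyond the CH12 limit. There the distance from the gene start to the limit ran from 319 kb for Ighm to 482 kb for Igha.

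The track from which the states were called was smoothed over a span of 300 kb, and the constant genes together are shorter than this span. In CH12 cells and in the map named for MEF WT, all 7 genes started within 150 kb of the E limit, which is one side of the span, so neither the gene at which the state changed nor a split among the 7 is resolved. In primary B cells none of the 7 started within 150 kb of a limit. The 360 kb between the limits of CH12 and primary B cells is longer than the span. Among all 1105 edges of E domains in CH12 cells, the primary B E domain reached at least 360 kb past the edge at 193, or 17.5% (Wilson 95% interval 15.3 to 19.8%, counting error only).

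**Figure D3:**
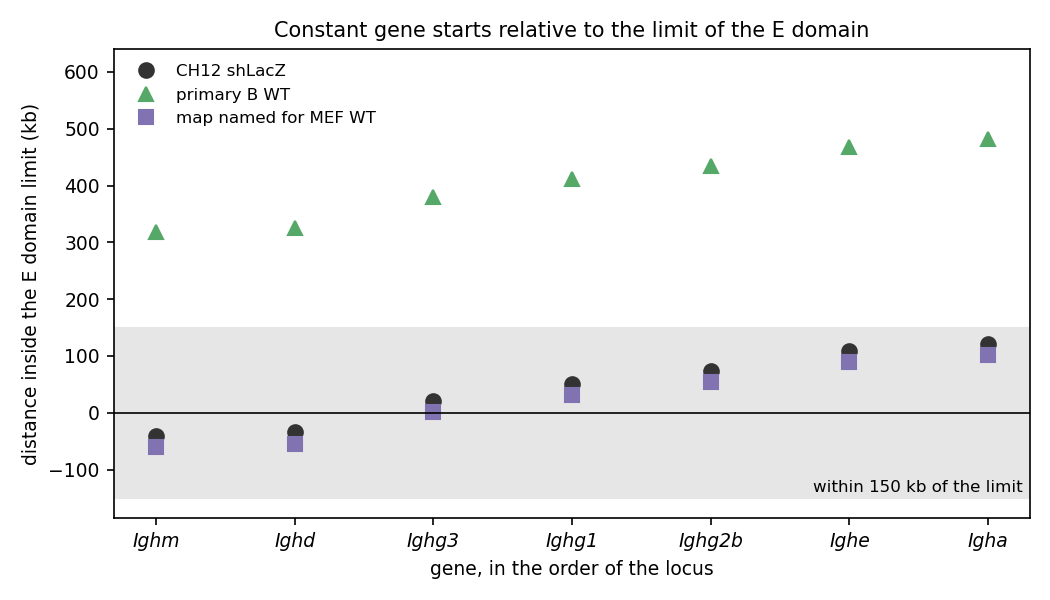
Distance of each constant gene start inside the limit of the E domain in kb (vertical axis, negative values lie past the limit) for the 7 genes in the order of the locus, 1 point per map and no error bars because there is 1 map per condition. In primary B cells all points lie above 300 kb, while in the other maps they lie within 150 kb of the limit (grey), with Ighm and Ighd below 0.

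The E domains over the constant genes differed in length as well. The CH12 domain was 3060 kb long, the 37th longest of 555 E domains, whose median was 680 kb. The domain in the map named for MEF WT was 3340 kb long, the 49th of 567. In primary B cells an M domain of 160 kb, which ended 1080 kb before the Ighm start, adjoined the E domain over the constant genes. That E domain was 1400 kb long, the 164th of 660. The 160 kb M domain that bounds it is shorter than the smoothing span of 300 kb, so the difference in length is not resolved.

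On the centromeric side no difference between maps was seen at the neighbouring genes. Tmem121, 4930427A07Rik, Crip1, Crip2, Mta1, Tex22, Pacs2, Brf1, Btbd6 and Nudt14, the 10 nearest protein-coding genes, were E in each of the 3 maps. Crip1 and Crip2 encode LIM domain proteins, Mta1 a subunit of the NuRD chromatin remodelling complex, and Brf1 a subunit of the RNA polymerase III initiation factor TFIIIB. The 69.2 kb between Igha and Tmem121, where the 3′ regulatory region of the locus lies, were E in each map as well. The interval of 5.78 kb between the Ighm start and the nearest J segment, which holds the intronic enhancer of the locus, was M in CH12 cells and in the map named for MEF WT and E in primary B cells. Its M states are not resolved at the smoothing span, since it lay within 150 kb of the E limit in those maps.

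The state of Ighm continued through the J and D segments. All 4 J segments (Ighj4 to Ighj1) and all 21 D segments (from Ighd4-1 to a segment named Gm16968) were M in CH12 cells, E in primary B cells and M in the map named for MEF WT. Adam6b and Adam6a, a pair of sperm fertility genes between the D and V segments, had the same pattern. In CH12 cells and in the map named for MEF WT, the J and D segments and Adam6b started within 150 kb of a limit. Adam6a did so in the map named for MEF WT but not in CH12 cells. These M states within 150 kb of a limit are therefore not resolved at the smoothing span.

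In each map most V segments were in a later state than every constant gene. Of 112 V segment starts, from Ighv2-1 at 0.152 Mb to Ighv1-85 at 2.58 Mb from the Ighm start, 0 were E in CH12 cells, 27 were M and 85 (75.9%) were L. In primary B cells 13 were E, 99 (88.4%) were M and 0 were L. In the map named for MEF WT 0 were E, 10 were M and 102 (91.1%) were L. The V segments were thus mostly L in CH12 cells and in the map named for MEF WT, and mostly M in primary B cells. In CH12 cells the 12 M segments nearest to Ighm started within 150 kb of a domain limit. So did the 10 M segments of the map named for MEF WT and most of the 13 E segments of primary B cells. These states are not resolved at the smoothing span. Over all chromosomes, primary B cells had 36822 E, 41017 M and 50118 L bins with known bases. Shares of all bins per state were not computed, so the segment counts are a description only.

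The V segments that shared the E domain of the constant genes in primary B cells were those nearest to them. They belonged to 2 families, with 6 of 10 Ighv2 and 7 of 10 Ighv5 segments. In CH12 cells 12 of the same 20 Ighv2 and Ighv5 segments were in the M domain that also held Ighm and Ighd, and the other 8 were L. The large Ighv1 family, with 56 segments between 1.05 and 2.58 Mb from Ighm, was M throughout in primary B cells and had 12 M and 44 L segments in CH12 cells. In CH12 cells 14 M segments, of the Ighv1 and Ighv8 families, lay in a 340 kb M domain between 1.72 and 2.06 Mb from Ighm, with L domains on both sides. That domain is little longer than the smoothing span of 300 kb, and most of its segments started within 150 kb of a limit.

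Over the region of the V, D and J segments, 2570 kb in 129 bins, 96 bins were L in CH12 cells. Of these, 95 (99%) were M in primary B cells, whereas 25.2% of all L bins of CH12 cells were. Most of the region lay within a single primary B M domain of 3020 kb, which began 0.319 Mb from Ighm and was the 8th longest of 1337 M domains, whose median was 440 kb. The region had low GC content for an M domain. Its 113 primary B M bins had a median GC content of 39.1%, against 41.8% in all primary B M bins and 38.5% in primary B L bins. The constant genes had a GC content of 47.4%, above the mean of 45.2% in E domains of primary B cells. V(D)J joining removes DNA from this region in B cells, and class switching removes DNA between the switch regions of the constant genes. The maps do not give the number of copies that each bin had. Whether either loss moved the states was not tested.

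**Figure D4:**
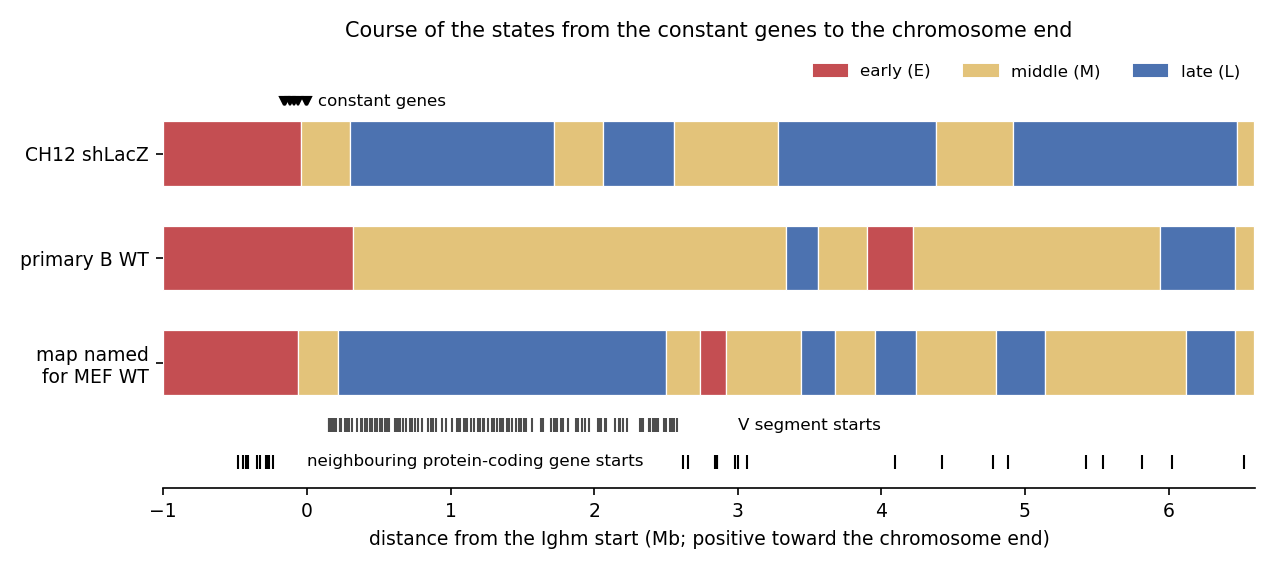
RT domains of the 3 maps from 1 Mb before to 6.60 Mb beyond the Ighm start (Mb, to the chromosome end), with constant genes as triangles and starts of V segments and of neighbouring protein-coding genes as ticks. Of 112 V segment starts, 85 lie in L domains in CH12 shLacZ cells, 99 in 1 long M domain in primary B cells, and 102 in 1 long L domain in the map named for MEF WT, and those nearest to Ighm lie in an earlier state in each.

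Beyond the last V segment, 4020 kb remained to the chromosome end, with 17 protein-coding gene starts. In CH12 cells 34.2% of these 202 bins were M and 65.8% were L. In primary B cells 7.92% were E, 73.8% M and 18.3% L, and in the map named for MEF WT 4.46% were E, 65.8% M and 29.7% L. The first genes, Zfp386 and Vipr2, a receptor for vasoactive intestinal peptide, were M in each map. The next 3, Wdr60, Gm11027 and Esyt2, were M in CH12 and primary B cells and E in the map named for MEF WT. That E domain was 180 kb long, shorter than the smoothing span of 300 kb, so this difference is not resolved. Near the chromosome end, the transcription factor gene Sp8, the transporter gene Abcb5 and the integrin gene Itgb8 were L in CH12 cells and M in the others. Macc1 was L in CH12 and primary B cells and M in the map named for MEF WT, and Tmem196, the last gene, was M in each. Only Rapgef5, named after its state was seen, was E in primary B cells, and it was L in the other maps. It started within 150 kb of a limit of its 320 kb E domain in primary B cells. In the map named for MEF WT its L domain was 280 kb long. Its difference between maps is therefore not resolved at the smoothing span. Several other genes distal of the V segments also started within 150 kb of a limit. From the constant genes to the chromosome end, 67.6% of 339 bins were L in CH12 cells, 10.9% in primary B cells and 51.3% in the map named for MEF WT. Over all chromosomes, CH12 cells had 65662 L bins and primary B cells had 50118 with known bases, counted with slightly different bin filters. The share of all bins that were L was not computed, so these values describe the region only. CH12 cells held no E bin beyond the constant genes, and the course stayed mostly M in primary B cells.

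The light chain constant genes had the pattern of Ighm and Ighd. Igkc, Iglc2 and Iglc3, which encode the constant parts of the kappa and lambda light chains, were M in CH12 cells, E in primary B cells and M in the map named for MEF WT. The T cell receptor constant genes did not share it: Trac was E in each map, like Igha, and Trbc1 and Trbc2 were L in each. Of these 6 genes, 3 thus shared the pattern of Ighm, beside 3.40% of protein-coding gene starts, but Iglc2 and Iglc3 lie in 1 locus and the genes were selected as the most alike in function. The pattern of Ighm is itself not resolved at the smoothing span, and distances to a limit were not measured for the light chain genes.

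V segments of the other receptor loci were set beside those of Igh, map by map. Igk V segments, 99 in number, were 36.4% E and 62.6% M in CH12 cells, 93.9% M in primary B cells and 90.9% L in the map named for MEF WT. In CH12 cells Igh V segments were therefore mostly L while Igk V segments were mostly M or E. The 108 V segments of Tra and Trd were 73.1% L in CH12 cells and 88.0% M in primary B cells, shares like those of Igh, but were 98.1% M in the map named for MEF WT. Trb V segments, 25 in number, were all L in CH12 cells, 72% M in primary B cells and 92% L in the map named for MEF WT, so that the most frequent state was that of the Igh V segments in each map. The 3 Igl V segments were M in CH12 cells, E in primary B cells and M in the map named for MEF WT, like Ighm. The 7 Trg V segments were all M in CH12 and primary B cells, and 5 of them were L in the map named for MEF WT. Segments of a locus share domains and are not independent.

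**Figure D5:**
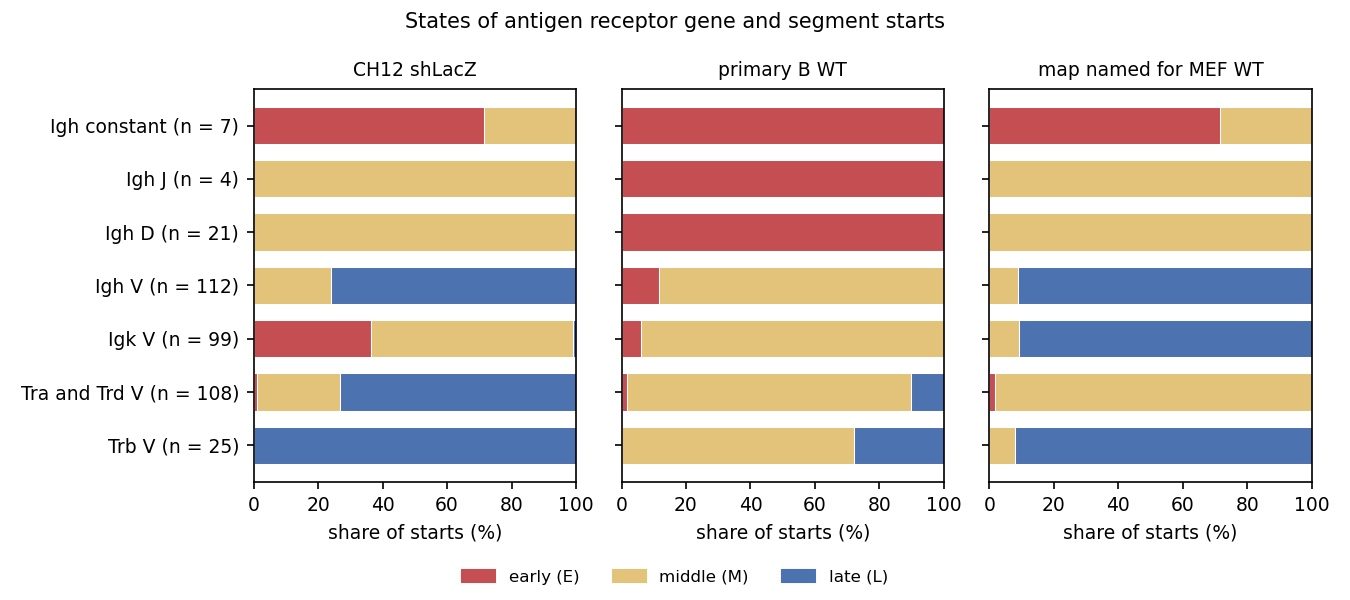
Share of starts in each state (horizontal axis, percent) for the 7 Igh constant genes, the Igh J, D and V segments, and V segments of the Igk, Tra and Trd, and Trb loci, 1 panel per map. In primary B cells the Igh bars pass from E at the constant genes, J and D segments to mostly M at the V segments, and in CH12 shLacZ cells from mostly E through M to mostly L.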

How the data were processed

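Repli-seq libraries of early and late S phase fractions came from CH12 and primary B cells, and groups were taken from sample titles. Per the study's methods and submitters' notes, reads were trimmed with Trim Galore 0.6.5, aligned to mm9 with BWA 0.7.17 and filtered for unique alignments with SAMtools 1.9, replicates were merged, and a log2 early/late read ratio was made in 20 kb bins with deepTools, smoothed by loess over 300 kb and segmented into 3 states by a hidden Markov model. Bins within repeats, such as switch regions, can lose reads to the filter on unique alignments, and this was not tested. The values the authors deposited are state numbers, 1 per domain, with no RT value, score or count.

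The files do not name the states. In each map 1 pair of states never touched, and M was given to the remaining state. Within the pair, E was the state denser in protein-coding gene starts. CH12 cells had 18.9 starts per Mb of E, 8.41 of M and 3.76 of L. Domains reached the NCBIM37 length on 20 of 20 chromosomes in all 3 maps. Genes were taken from GENCODE M1 and placed by the start on their own strand, and 76 of 112 V segments were named through RefSeq synonyms. Unnamed constant genes were sought with tblastn 2.17.0, using 19 annotated constant domain exons of over 80 residues and an e-value of at most 0.0001. All 19 exons were found again, which was certain in advance because they were read from the sequence searched. This does not show how well diverged domains such as those of Ighd and Igha are found.

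The genes and lists were chosen with earlier results of these data known. The genes named are the 7 constant genes, the first and last J, D and V segment, the 10 nearest centromeric protein-coding genes, the first 5 and last 5 distal ones, and the light chain and T cell receptor constant genes. Ighg2c, Adam6a, Adam6b and Rapgef5 fall outside this rule and were named after their states were seen. Trgc and Trdc were not analysed here. No test was made. Counts of E genes and of state patterns among the constant genes are given with the share of all protein-coding gene starts. Wilson 95% intervals cover counting only, since neighbouring bins, edges and genes are not independent. The other 5 groups were not analysed here. Functions were tested on simulated data and passed 4 of 4 checks. Analyses used Python 3.11.15, numpy 2.4.6, scipy 1.17.1, biopython 1.88 and matplotlib 3.10.9.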

Additional observations from a re-analysis of the deposited data

How the results depend on the processing

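The states of the 7 constant genes were the same when the middle, the end or most bases of each gene, or most bins within 150 kb of its start, were used, and when domains under 100 kb were joined to their longer neighbour, which also left each distance to a limit as given. Moving all limits was chosen after seeing the data. A move of 20 kb changed Ighg3 in the map named for MEF WT alone (4 of 7 E). A move of 150 kb toward the centromere left 0 of 7 E in CH12 cells and in the map named for MEF WT and 7 of 7 in primary B cells, and the opposite move made 7 of 7 E in each map. Bounding the variable region by the first and last V segment start gave 7.38% E and 92.6% M bins in primary B cells (12.4% and 87.6% with D and J segments) and 6.56% M and 93.4% L in the map named for MEF WT (11.6% and 88.4%). Over all gene types, E starts made up 44.8% in CH12 cells, 51.7% in primary B cells, 51.8% in the map named for MEF WT and 38.1% in all 3. On chromosome 12 alone, the last 3 shares were 54.4%, 55.3% and 42.6%. The share of CH12 E edges with as long an extension, an alternative chosen after seeing the data, was 12.5% on chromosome 12. Naming the states by GC content gave the same names in 3 of 3 maps. Upstream of Ighd, a window of 10 kb reached the switch region of Ighm and held 233 AGCT. The planned use of another annotation of the same build was not run. No paired analysis was possible because the replicates of a group share 1 map. Depth limits could not be given, since the maps hold no counts.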

Other observations

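Matches to IgG constant domains also lay on the opposite strand among the constant genes. There were 6 in all, against 19 annotated exons on the genes' own strand. Of the 6, 4 stood together between 51.9 and 53.2 kb downstream of the Ighm start, in the interval between Ighd and Ighg3 that holds the E limit of CH12 cells. Their best identities to Ighg1 or Ighg3 exons ran from 47.5 to 64.3%, and they were E in CH12 and primary B cells and M in the map named for MEF WT. The other 2 lay 107 and 125 kb downstream of the Ighm start, upstream of Ighg2b and of Ighg2c.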
